A study of Mus musculus with 3 samples.

Results

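The genes described here are 9 transcription factors that are known to set or keep the identity of microglia, the resident macrophages of the brain: Spi1, Irf8, Sall1, Mef2a, Mef2c, Zeb2, Runx1, Maf and Hes1. They were chosen by name, as 9 of the 15635 genes found in at least 1 of the libraries, and each was measured in all 3 of them. The libraries were hCD33m, hCD33M and control, with 1 library per genotype. In the hCD33m mice a transgene for the short isoform of human CD33, a sialic acid receptor of myeloid cells, sat behind a floxed stop in the Rosa26 locus, together with GFP. The hCD33M mice carried the long isoform in the same kind of construct, and in both lines Cx3cr1Cre, which acts in microglia and other Cx3cr1+ myeloid cells, released the transgene. The control library is labelled wild type, and the methods describe such controls elsewhere in the study as Cx3cr1Cre+/- mice without a transgene, so it is not stated whether these mice carried Cre. All mice were 8 weeks old and on a C57BL/6 background, the hCD33m line was made in targeted embryonic stem cells, and each library pooled sorted CD11b+CD45lowCx3cr1+ brain cells of 2 mice. A genotype is therefore 1 sample, no test across mice can be made, and every interval below is a 95% interval for counting error only. Human CD33 transcripts were not analysed here.

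PU.1, the product of Spi1, is the lineage factor of myeloid cells, and IRF8 binds together with it at composite sites in macrophage enhancers. SALL1 is a zinc finger repressor that among brain macrophages is largely restricted to microglia, where TGF-beta signalling maintains it. MEF2A and MEF2C bind microglial enhancers, ZEB2 and MAF hold tissue macrophages to their identity, RUNX1 acts from blood formation onwards, and HES1 is a repressor induced by Notch. Border macrophages, which line the meninges and vessels, and blood monocytes share PU.1 with microglia but are known to differ from them in some of the other factors, such as SALL1.

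After removal of cells with 200 or fewer genes, over 8000 genes or over 10% mitochondrial UMIs, 6068 hCD33m, 5710 hCD33M and 5891 control cells remained, with a median of 4215.5 to 4881 UMIs (molecules tagged by a unique identifier) per cell. The hCD33m library is labelled female, but it held 0 Xist UMIs and 94.9 CPM (UMIs per 1000000 UMIs) of the Y-linked gene Ddx3y, close to the 105 in hCD33M and 95.3 in control, so these genes go against its label. Between 4 and 10 cell barcodes were shared by any pair of libraries. Clustering without the 9 factors gave 13 clusters, of which 9 (13901 cells: 5096 hCD33m, 4338 hCD33M and 4467 control) were microglia-like, 1 (225 cells: 114, 47 and 64 in the same order) border macrophage-like and 1 (84 cells: 41, 23 and 20) monocyte-like. The remaining 2 clusters, with 3459 cells of few UMIs (817 hCD33m, 1302 hCD33M and 1340 control), were left unnamed. They held 13.5% of the kept hCD33m, 22.8% of the hCD33M and 22.7% of the control cells. The larger, with 2087 cells, counted 10 microglia markers by the naming rule and was left unnamed for its few UMIs. The clusters were named from these marker lists, with a limit of 20 CPM, so the marker counts that follow describe the naming and do not check it. All 10 microglia markers passed 20 CPM in the microglia-like cells, where none of the 9 border macrophage markers and none of the 9 monocyte markers did. All 10 microglia markers also passed 20 CPM in the border macrophage-like and in the monocyte-like cells. An Mrc1 UMI was found in 201 of the 225 border macrophage-like cells and a Plac8 UMI in 73 of the 84 monocyte-like cells. The immediate early genes, which respond to stimulation and to handling of the cells, differed between the libraries, with a median of 20 UMIs of 37 such genes in hCD33m, 15 in hCD33M and 9 in control microglia-like cells after each cell was thinned to 1600 UMIs. By the paper's methods, mice were perfused with actinomycin D and triptolide, and brains were stored with these and anisomycin. The paper states that cells were kept ice-cold, and reports a higher density of Fos+ microglia in situ in hCD33m than in wild-type brains. The part of handling was not tested here.

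In microglia-like cells the levels of 8 of the 9 factors lay between 251 and 1512 CPM in every library, and Hes1 lay between 22.3 and 26.4 CPM. Mef2c and Maf were the most abundant, Runx1 and Hes1 the least. One UMI stands for 1 captured 3′ end, so levels were not divided by transcript length. The order of the 9 levels was the same in hCD33m and control except that Zeb2 stood above Irf8 in hCD33m and below it in control, and within each of these libraries no interval overlapped that of the next gene. In hCD33M Maf stood above Mef2c, and the intervals of Sall1 and Spi1 overlapped. None of the 9 factors was higher or lower by 1.5-fold, with an interval clear of no difference, in any comparison of libraries over the microglia-like cells. For hCD33m over control, 0.855% of the 6787 genes tested were higher and 0.324% lower by this rule. For hCD33M over control, the shares over 6781 genes were 0.605% higher and 0.339% lower, and for hCD33m over hCD33M, over 6763 genes, 0.458% higher and 0.222% lower. At shares this small, a count of 0 of 9 does not set the factors apart from other genes. The median log2 ratio of the 9 factors was 0.08 for hCD33m over control, beside 0.01 over all genes tested, 0.08 for hCD33M over control, beside 0.01, and 0.00 for hCD33m over hCD33M, beside 0.00.

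**Figure D1:**
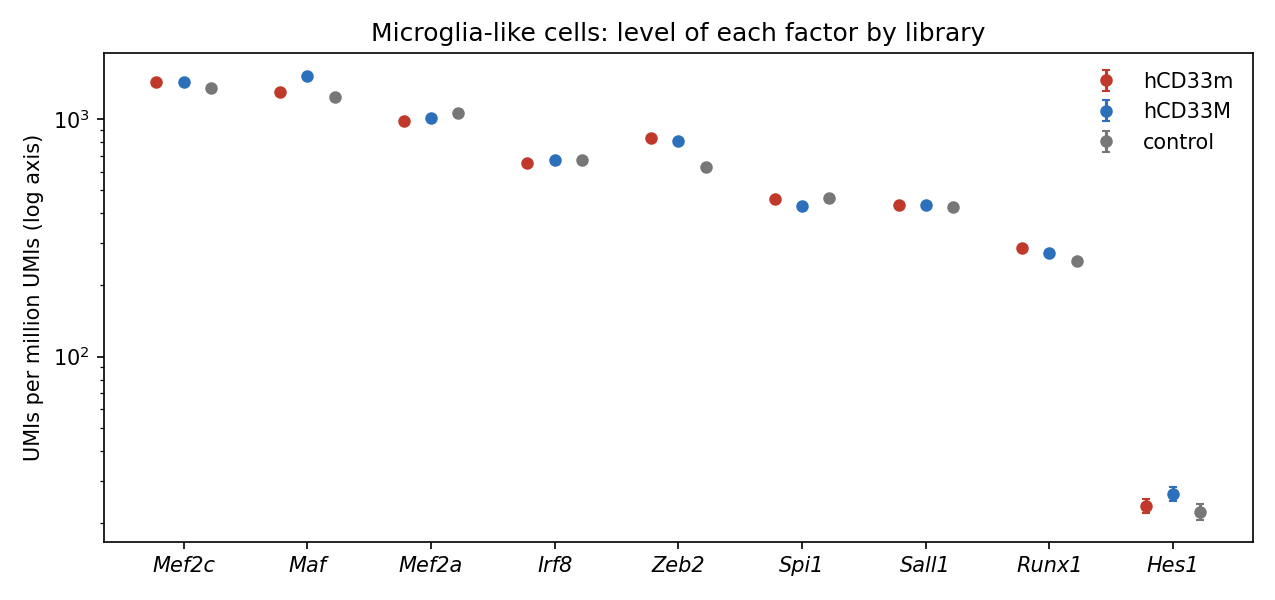
Level of each factor in microglia-like cells, in CPM on a log axis, for hCD33m, hCD33M and control from left to right in each group, 1 library each. Bars are 95% Poisson intervals for counting error, mostly smaller than the points. Zeb2 stood at 831, 810 and 627 CPM, the widest spread against control, and Hes1 between 22.3 and 26.4 CPM.

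The lineage factors differed little. Spi1 had 460 CPM in hCD33m, 430 in hCD33M and 465 in control microglia-like cells. The hCD33M library was the lowest, with a log2 ratio over control of -0.11 (-0.15 to -0.08), below 0 in 8 of the 8 clusters with at least 100 cells per library and with an interval below 0 in 4 of them. Irf8 had 653 CPM in hCD33m, 672 in hCD33M and 675 in control, with log2 ratios over control of -0.05 (-0.07 to -0.02) and -0.01 (-0.03 to 0.02).

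Sall1 was nearly level across the libraries over all microglia-like cells together. It had 434 CPM in hCD33m, 433 in hCD33M and 428 in control cells, with log2 ratios over control of 0.02 in both transgenic libraries (-0.01 to 0.05 for hCD33m and -0.02 to 0.05 for hCD33M). After thinning, 47.1% of hCD33m, 46.7% of hCD33M and 46.0% of control microglia-like cells held a Sall1 UMI, and without thinning 81.5%, 77.2% and 76.2% did. In monocyte-like cells thinned alike, which should lack Sall1, a Sall1 UMI was found in 4.88% of the hCD33m cells, in 9.09% of those of hCD33M and in 0% of those of control (up to 16.8% by the exact interval). By microglia-like cluster the log2 ratio of Sall1 over control lay above 0 in 2 of 8 clusters in either transgenic library. For hCD33m the cluster values ran from -0.13 to 0.37, with 1 interval above 0 and 1 below it. For hCD33M they ran from -0.15 to 0.15, and no interval was clear of 0.

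The MEF2 pair was split in direction. Mef2a had 983 CPM in hCD33m, 1010 in hCD33M and 1056 in control cells, and the log2 ratio over control was below 0 in 8 of 8 clusters for both transgenic libraries (-0.10 and -0.06 over all microglia-like cells), with an interval below 0 in 5 and 6 of them. Mef2c had 1432 CPM in hCD33m, 1428 in hCD33M and 1352 in control cells, a log2 ratio of 0.08 in both. Neither difference came near the 1.5-fold of the rule. Of 16 MEF2 regulators such as class II histone deacetylases and calcineurin, 12 passed 20 CPM and none was past 1.5-fold against control in either library. Of 18 known targets of PU.1 and IRF8, 16 passed and none was past 1.5-fold. Their most different members for hCD33m over control were Batf3, a dendritic cell factor, at 57.2 against 44.5 CPM, and Ms4a6c at 60.9 against 77.0 CPM.

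In microglia-like cells Zeb2 was the factor that differed most against control. It had 831 CPM in hCD33m (822 to 840), 810 in hCD33M (800 to 820) and 627 in control cells (618 to 636), so both transgenic libraries stood above control and close to each other. The log2 ratios over control were 0.41 (0.38 to 0.43) for hCD33m and 0.37 (0.34 to 0.40) for hCD33M, which are 1.33-fold and 1.29-fold. They exceeded the 95th percentile of all genes tested, 0.28 and 0.25. The interval of the ratio lay above 0 in 8 of 8 clusters for each transgenic library, with cluster values of 0.36 to 0.53 for hCD33m and 0.25 to 0.43 for hCD33M. A Zeb2 UMI was found after thinning in 69.3% of hCD33m cells (68.0% to 70.6%), 68.3% of hCD33M cells (66.9% to 69.8%) and 58.7% of control cells (57.2% to 60.2%), and without thinning in 93.7%, 92.3% and 88.2%. In the border macrophage-like cluster Zeb2 had 801 CPM in hCD33m (754 to 851), 888 in hCD33M (817 to 963) and 712 in control cells (649 to 779). In the monocyte-like cluster it had 903 in hCD33m (804 to 1009), 795 in hCD33M (692 to 909) and 678 in control cells (579 to 789). Control was the lowest in both. In the border cluster the Zeb2 log2 ratio over control was 0.17 (0.01 to 0.33) for hCD33m and 0.32 (0.14 to 0.50) for hCD33M. In the monocyte cluster it was 0.41 (0.14 to 0.69) for hCD33m and 0.23 (-0.07 to 0.53) for hCD33M. Zeb2 was not alone in this in the border cluster. Mef2c there was at 0.23 for hCD33m and 0.22 for hCD33M over control, and Mef2a at 0.20 and 0.21, while Irf8 was at 0.05 and -0.02. GENCODE M21 places Zeb2 on the minus strand of chromosome 2 (GRCm38, 44983632 to 45117395), and its antisense gene Zeb2os overlaps it on the other strand.

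The level of Zeb2 moved with the immediate early genes. Among control cells it was 553 CPM where the 37 early genes had 0 to 5 UMIs, 611 at 6 to 10, 653 at 11 to 20 and 863 (776 to 956) at 21 or more. In hCD33m cells it was 755, 736, 781 and 886 CPM over the same 4 steps, and in hCD33M cells 754, 730, 800 and 894. Both transgenic libraries were thus apart from control in cells of 0 to 5 early UMIs, at 755 (680 to 835) in hCD33m and 754 (687 to 825) in hCD33M against 553 (529 to 578) in control. That step held 96 hCD33m, 115 hCD33M and 607 control cells. At 6 to 10 and at 11 to 20 their intervals also lay above that of control. The intervals of the 3 libraries overlapped at 21 or more, a step that held 96 control cells. The part of early gene expression in the Zeb2 difference was not tested. The 37 early genes were listed with earlier results of these data known. Of them, 25 passed 20 CPM in hCD33m or control, and 20 of these were higher and none lower in hCD33m. Over all 6787 genes tested 0.855% were higher and 0.324% lower. For hCD33M over control 12 of 24 early genes were higher and 2 lower, where 0.605% of 6781 genes were higher and 0.339% lower. Fos, for example, had 522 CPM in hCD33m against 56.9 in control cells.

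**Figure D2:**
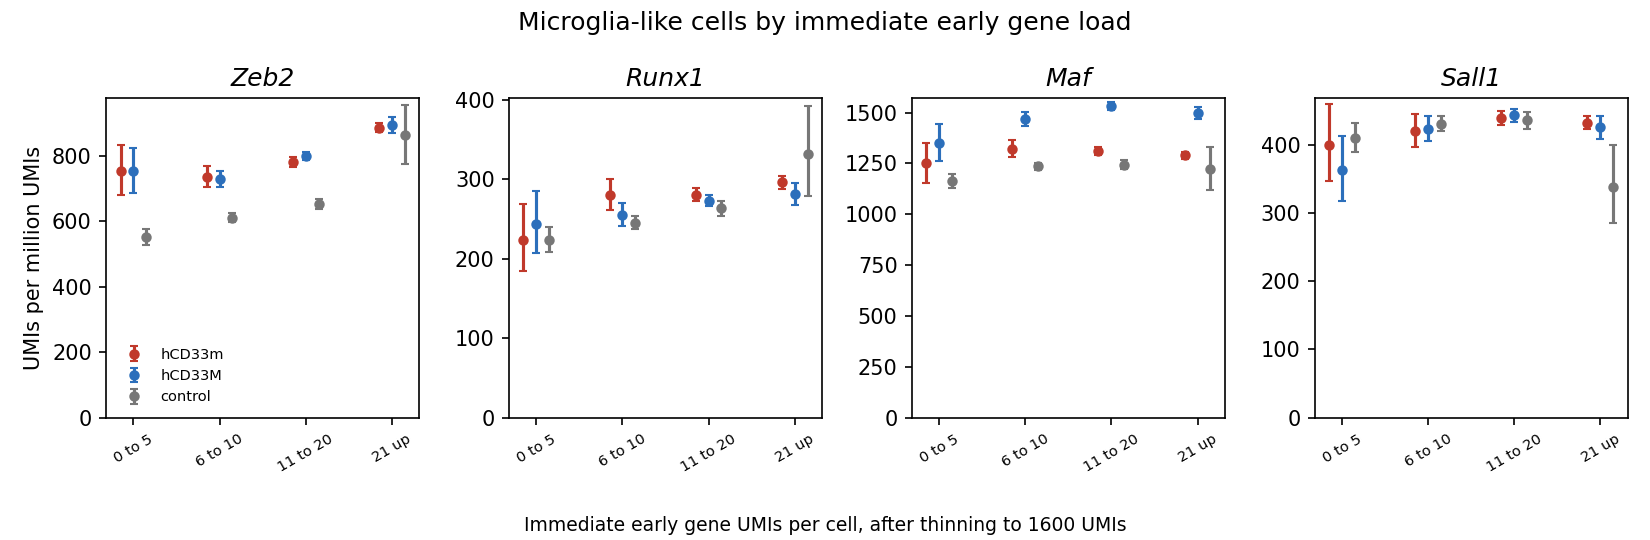
Level of Zeb2, Runx1, Maf and Sall1 in microglia-like cells, in CPM, for cells grouped by their immediate early gene UMIs after thinning to 1600 UMIs, with hCD33m, hCD33M and control from left to right at each step and 95% Poisson intervals. Zeb2 lay between 553 and 863 CPM in control cells from the lowest to the highest step, while Maf stayed at 1164 to 1244 CPM.

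The promoters of the factors, from 250 bases before to 50 after a start site, were read from a table of RefSeq promoters (GRCm38.p6), in which 15 promoters of 6 of the 9 genes were matched. The 3 promoters shown were chosen after their motif matches were seen: one of Zeb2, for its place in the library comparison and its motif of the early gene family, and those of Mef2a and Runx1, which hold the motif of their own protein family. Capitals mark the motif, and each promoter lies on the minus strand of its chromosome and is written 5′ to 3′ of the gene.
Zeb2 (chr2:45110228-45110527, AP-1 motif): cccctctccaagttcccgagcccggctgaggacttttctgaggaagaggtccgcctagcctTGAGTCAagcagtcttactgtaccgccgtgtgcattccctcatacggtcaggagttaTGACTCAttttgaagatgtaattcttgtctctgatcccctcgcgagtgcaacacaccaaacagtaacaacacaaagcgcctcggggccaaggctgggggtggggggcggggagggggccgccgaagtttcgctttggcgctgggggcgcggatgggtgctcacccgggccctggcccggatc
Mef2a (chr7:67372809-67373108, MEF2 motif): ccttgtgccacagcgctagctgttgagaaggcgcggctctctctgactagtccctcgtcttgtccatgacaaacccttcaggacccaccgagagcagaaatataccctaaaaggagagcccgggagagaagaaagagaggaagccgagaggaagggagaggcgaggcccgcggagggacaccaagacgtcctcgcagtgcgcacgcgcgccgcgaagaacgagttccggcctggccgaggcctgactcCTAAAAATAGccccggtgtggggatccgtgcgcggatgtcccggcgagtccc
Runx1 (chr16:92826025-92826324, RUNX motif): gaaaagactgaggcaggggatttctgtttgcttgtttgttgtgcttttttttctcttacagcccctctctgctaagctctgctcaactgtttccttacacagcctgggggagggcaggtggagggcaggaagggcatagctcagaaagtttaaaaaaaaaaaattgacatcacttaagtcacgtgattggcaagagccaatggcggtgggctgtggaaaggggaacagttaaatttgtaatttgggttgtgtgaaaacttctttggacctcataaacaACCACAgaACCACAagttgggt
This Zeb2 promoter is 1 of 4 listed for the gene and holds TGANTCA (N is any base), the site of AP-1 (FOS and JUN proteins), at 189 and 132 bases before the start. On both strands, 2 of the 15 promoters (this one and 1 of Mef2c) and 7.81% of all 32851 promoters in the table held that motif. The MEF2 motif, CTA and TAG set 4 bases apart, begins 2 bases before the Mef2a start and is in 3.69% of all promoters. The RUNX motif TGTGGT is read on the other strand, as ACCACA, at 28 and 36 bases after the Runx1 start, and is in 16.8% of all promoters. The composite ETS-IRF motif, GGAA and GAAA set 2 bases apart, was in none of the 15 promoters and in 2.72% of all. A match is a description of the letters only.

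Runx1 lay in the same direction as Zeb2, by less. It had 288 CPM in hCD33m, 272 in hCD33M and 251 in control cells. The log2 ratios over control were 0.20 (0.15 to 0.24) and 0.12 (0.07 to 0.16), above 0 in 8 and 7 of 8 clusters. Both were under the 95th percentile of all genes tested, 0.28 and 0.25. In the cells with 0 to 5 early UMIs its levels were 223 in hCD33m, 244 in hCD33M and 224 in control, with overlapping intervals. At 6 to 10 they were 280 in hCD33m (261 to 300), 255 in hCD33M (241 to 270) and 245 in control (237 to 254), and at 11 to 20 they were 280.2 in hCD33m (272 to 289), 273 in hCD33M (266 to 281) and 263 in control (254 to 273). At 21 or more, with 96 control cells, they were 296 in hCD33m, 281 in hCD33M and 332 in control. Of 23 partners of ZEB2, SALL1 and the SMAD proteins all passed 20 CPM and none was past 1.5-fold. The most different was Tgif1, a SMAD corepressor, at 64.1 CPM in hCD33m against 44.2 in control cells.

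Maf differed between the 2 transgenic libraries. It had 1301 CPM in hCD33m, 1512 in hCD33M and 1230 in control cells. The hCD33M library was the highest, with a log2 ratio over control of 0.30 (0.28 to 0.32), above the 95th percentile of all genes tested, 0.25. The ratio of hCD33m over control was 0.08 (0.06 to 0.10). For hCD33m over hCD33M it was -0.217 (-0.236 to -0.199), inside the 5th to 95th percentiles of all genes tested (-0.222 to 0.205). In 8 of 8 clusters the hCD33M interval lay above control and the hCD33m interval below hCD33M. The hCD33M value was also the highest at each step of early gene UMIs, from 1349 to 1533 CPM, against 1250 to 1322 in hCD33m and 1164 to 1244 in control cells, although at 0 to 5 early UMIs its interval (1260 to 1443) overlapped that of hCD33m (1154 to 1352). In the border macrophage-like cluster Maf had 1554 CPM in hCD33m, 2215 in hCD33M and 1553 in control cells, so hCD33M was again the highest, at a log2 ratio over control of 0.51 (0.40 to 0.63).

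**Figure D3:**
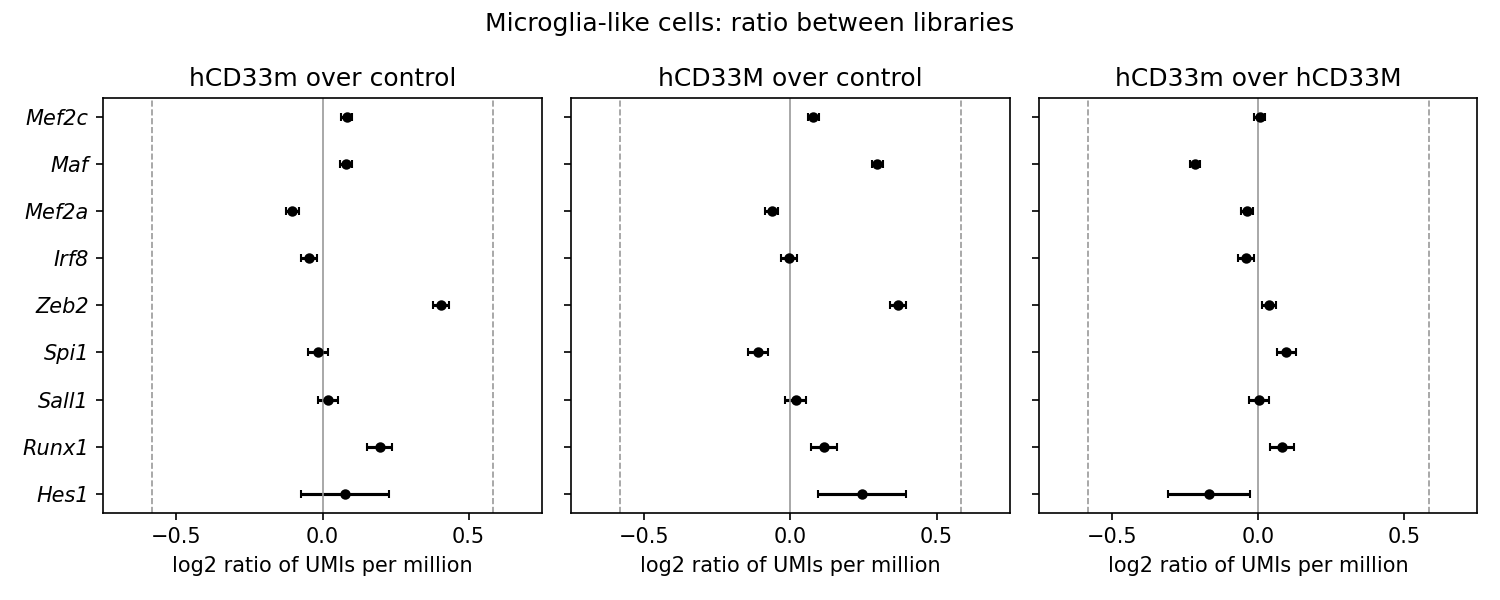
Log2 ratio of each factor's CPM between libraries in microglia-like cells, with 95% conditional binomial intervals for counting error, for hCD33m over control, hCD33M over control and hCD33m over hCD33M. Dashed lines mark 1.5-fold in either direction, which no factor passed. Zeb2 lay at 0.41 and 0.37 over control, and Maf at 0.30 in hCD33M over control and -0.22 in hCD33m over hCD33M.

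Hes1, the rarest factor, had 23.5 CPM in hCD33m, 26.4 in hCD33M and 22.3 in control cells, and after thinning 3.56% of hCD33m, 3.56% of hCD33M and 2.84% of control microglia-like cells held a UMI of it. Its log2 ratio was 0.25 (0.09 to 0.40) for hCD33M over control and 0.08 (-0.07 to 0.23) for hCD33m over control. Of 33 genes of the Notch pathway 19 passed 20 CPM and none was past 1.5-fold, the largest difference being Tle4, a Groucho corepressor that HES proteins recruit, at 176 CPM in hCD33m against 122 in control cells. Of 35 other macrophage transcription factors 26 passed, and 1 was higher in hCD33m than in control by the rule: Id2, an inhibitor of helix-loop-helix factors, at 65.6 against 41.8 CPM. In the other direction the most different was Bhlhe41, at 199 CPM in hCD33m against 273 in control cells, under 1.5-fold.

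Against monocyte-like cells most factors stood higher in microglia-like cells, which describes clusters cut from the same cells and is no test. By the 1.5-fold rule, 6 of the 9 were higher in microglia-like than in monocyte-like cells, 1 lower and 2 neither, while 37.6% of all 7225 genes were higher and 17.1% lower. The median log2 ratio of the 9 was 1.23, beside 0.37 over all genes. Maf had 1347 CPM in microglia-like and 257 in monocyte-like cells, a log2 ratio of 2.39 (2.20 to 2.59), and Sall1 had 432 against 104 (2.05, 1.75 to 2.37). Mef2c had 1406 against 354, Mef2a 1014 against 406, Runx1 272 against 116 and Irf8 666 against 371 CPM. Each of these 6 was higher in microglia-like cells within each of the 3 libraries, except Irf8 in hCD33M, at 0.55 (0.30 to 0.82). The lower one was Hes1, at 24.0 against 37.4 CPM, which rests on 32 UMIs. Spi1 had 452 CPM in microglia-like and 587 in monocyte-like cells, a log2 ratio of -0.38 (-0.50 to -0.25), and Zeb2 had 762 against 804. After TMM scaling the log2 ratios all fell by 0.32, the calls over all genes became 23.2% higher and 24.7% lower, and Irf8, at 0.53, no longer passed the rule while Spi1, at -0.70, did.

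Transcripts of microglia were also present in the monocyte-like cluster and moved with Sall1 and Maf. P2ry12, a microglial receptor, was 5.02-fold higher in microglia-like than in monocyte-like cells, and Tmem119, Siglech and Sparc were 4.79-fold to 5.84-fold higher, beside 4.15-fold for Sall1 and 5.24-fold for Maf. The 10 microglia markers summed to 3702 CPM in hCD33m, 12556 in hCD33M and 4032 in control monocyte-like cells. The hCD33M library held the most Sall1 too, with 53 UMIs (196 CPM), against 17 in hCD33m (29.1 to 80.0 CPM) and 19 in control (77.6 CPM). Spi1 and Zeb2 did not follow this order. Spi1 was at 659 CPM in hCD33m, 529 in hCD33M and 551 in control, and Zeb2 at 903, 795 and 678. Maf had 129 CPM in hCD33m, 510 in hCD33M and 155 in control monocyte-like cells. By the 1.5-fold rule 4 of the 9 factors were higher in hCD33M than in control monocyte-like cells, where 8.56% of 6820 genes were: Maf at a log2 ratio of 1.72 (1.19 to 2.28), Sall1 at 1.34 (0.56 to 2.18), Mef2a at 0.79 (0.40 to 1.18) and Mef2c at 0.61 (0.19 to 1.04). The same 4 were lower in hCD33m than in hCD33M, where 8.31% of 6762 genes were. The part of the microglia markers in these differences was not tested. Without thinning, a Sall1 UMI was found in 17.4% of the 23 hCD33M, 15% of the 20 control and 14.6% of the 41 hCD33m monocyte-like cells. A Maf UMI was found in 47.8%, 35% and 29.3% of them. The 53 Sall1 UMIs of hCD33M thus came from few cells, and the intervals leave out this spread between cells. The cluster also held 3 cells, 1 per library, with at least 20 UMIs of the neutrophil genes S100a8 and S100a9, and the neutrophil markers summed to 7233 CPM in hCD33m, 11994 in hCD33M and 40909 in control. Without those 3 cells Sall1 stood at 109.8 and Maf at 270.2 CPM. Where monocytes were gated by markers alone (75 cells with at least 3 monocyte markers and more UMIs of these than of P2ry12, Tmem119, Siglech and Sparc), Sall1 was at 31.5 CPM (19.7 to 47.6), Maf at 120 and Mef2c at 240, while Spi1 stood at 591 and Zeb2 at 812. In that comparison the same 6 were higher and Hes1 lower, where 40.6% of 7309 genes were higher and 18.5% lower. How much of the Sall1 and Maf UMIs in the cluster comes from microglial RNA was not tested.

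The border macrophage-like cluster as a whole lay close to the microglia-like cells. By the rule only Hes1 was higher in microglia-like cells, at 24.0 against 15.5 CPM and 41 UMIs, and none was lower, while 2.46% of 6943 genes were higher and 4.42% lower. Sall1 had 432 CPM in microglia-like and 289 in border macrophage-like cells, 1.49-fold, just under the rule. By library Sall1 had log2 ratios of 0.56 in hCD33m, 0.43 in hCD33M and 0.79 in control and passed the rule in control alone, while Hes1 had 0.72, 0.51 and 0.57 and passed it in hCD33m alone. The microglial markers P2ry12, Tmem119, Siglech and Sparc stood at log2 ratios of 0.59 to 0.65, beside 0.58 for Sall1. The 10 microglia markers summed to 21405 CPM in hCD33m, 22310 in hCD33M and 20586 in control cells of this cluster, so microglial transcripts were abundant in it. The median log2 ratio of the 9 factors was 0.13, beside 0.09 over all genes. After TMM scaling 1.60% of genes were higher and 5.06% lower, Hes1 no longer passed, and Runx1 had -0.04 in place of 0.01.

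**Figure D4:**
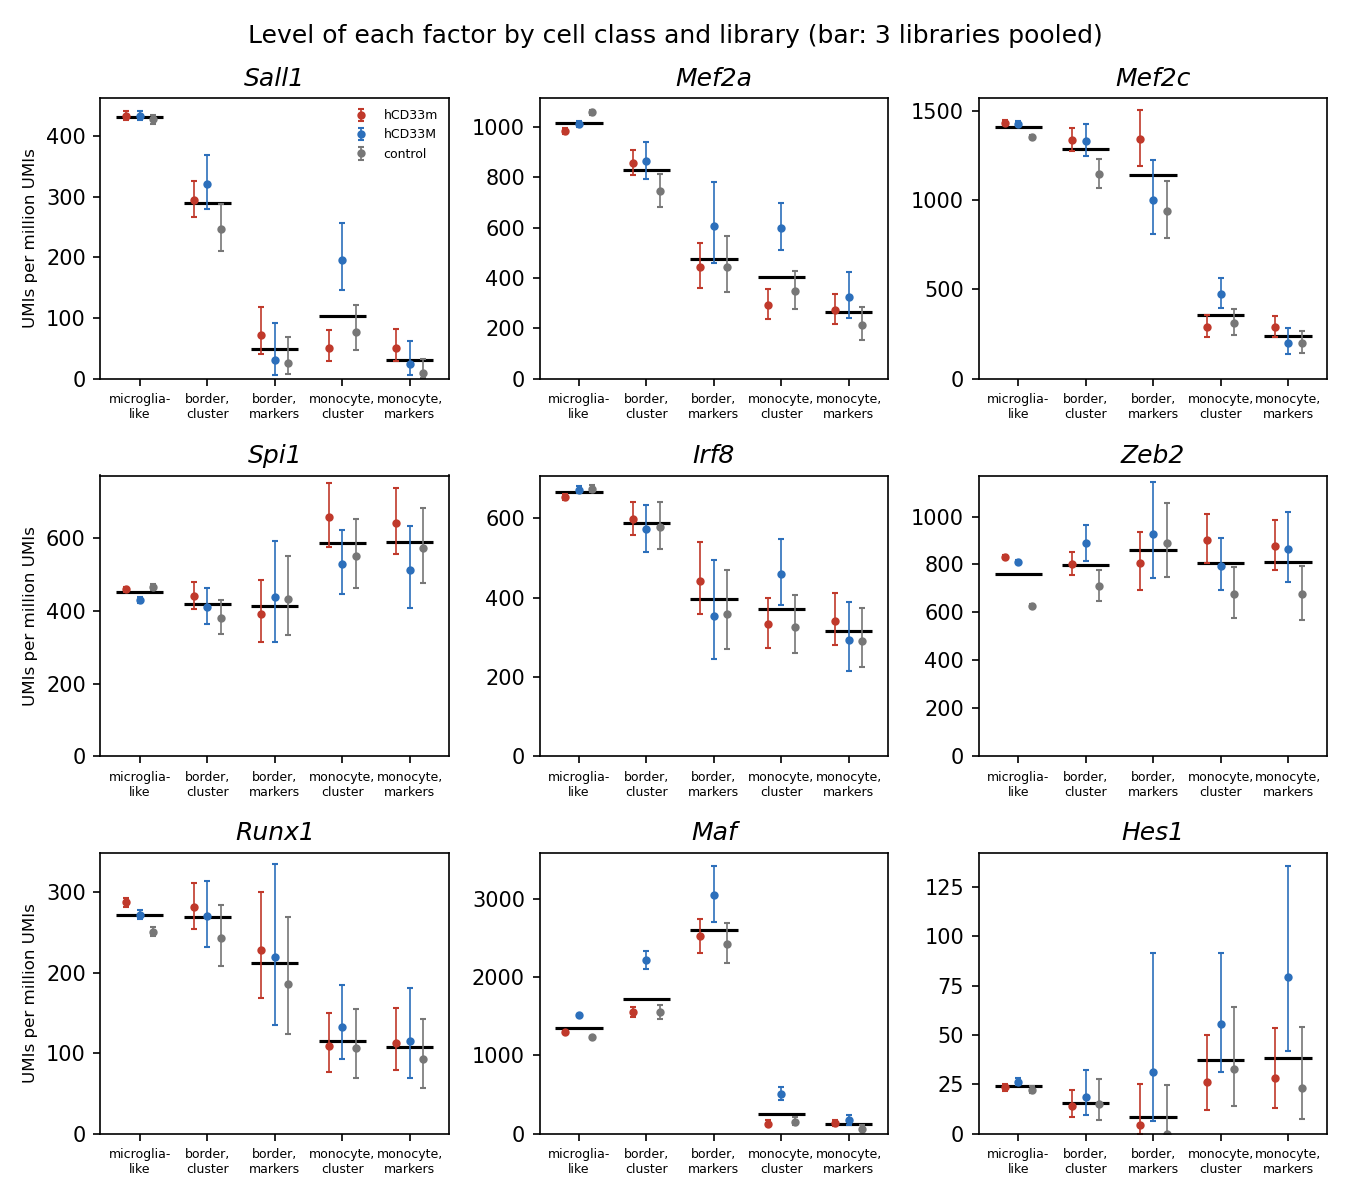
Level of each factor in CPM in microglia-like cells, in the border macrophage-like cluster, in border macrophages gated by markers alone, in the monocyte-like cluster and in monocytes gated by markers alone. Points are hCD33m, hCD33M and control from left to right with 95% Poisson intervals, and bars pool the 3 libraries. Sall1 lay at 432 CPM in microglia-like cells and at 49.4 and 31.5 CPM in the gated border macrophages and monocytes, and Maf at 1347, 2598 and 120 CPM.

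Within that cluster the factors varied with the share of border macrophage markers among a cell's marker UMIs. Sall1 had 352 CPM in the 95 cells with a share under 25%, 298 in 38 cells of 25% to 50%, 99.0 in 25 cells of 50% to 75% and 22.6 (9.07 to 46.5) in 67 cells of 75% or more. The microglia marker P2ry12, whose level the steps themselves set in part, had 2710, 2064, 1485 and 335 CPM. Maf moved oppositely, at 1450, 1770, 2160 and 2884 CPM (2698 to 3079 at the top step). Mef2a was at 917, 816, 743 and 406 and Irf8 at 654, 538, 569 and 293 CPM, with the lowest level in the cells richest in border markers. Spi1, from 352 to 441 CPM, Zeb2, from 686 to 886, and Mef2c, from 1089 to 1364, stayed within 1.5-fold over the 4 steps. The share is a range and no cell type, and the cells' median UMI count also differed over the steps, at 15541, 11649.5, 6326 and 4337. Doublets were not called, and their part in this pattern was not tested.

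Border macrophages gated by markers alone numbered 85 (45 hCD33m, 16 hCD33M and 24 control cells), of which 82 lay in the cluster. Against them 4 factors were higher in microglia-like cells and 1 lower, where 20.4% of 7172 genes were higher and 11.9% lower. Sall1 had 432 CPM in microglia-like cells and 49.4 (31.3 to 74.1) in gated border macrophages, a log2 ratio of 3.13, or 8.74-fold. The 4 microglia markers that the gate was set against stood at 3.78-fold to 6.11-fold, values that the gate itself sets in part. By library the gated cells held 72.9 CPM of Sall1 in hCD33m, 31.3 in hCD33M and 26.6 in control, all far under the 428 to 434 of microglia-like cells. Mef2a (1014 against 477 CPM), Irf8 (666 against 397) and Hes1 (24.0 against 8.59, from 4 UMIs) were the other factors that were higher. Maf was the lower one, at 1347 CPM in microglia-like against 2598 in gated border macrophages, a log2 ratio of -0.95 (-1.03 to -0.86), and its level there was 2520 in hCD33m, 3046 in hCD33M and 2427 in control cells. Spi1 (452 against 414), Zeb2 (762 against 859), Runx1 (272 against 213) and Mef2c (1406 against 1140 CPM) stayed under 1.5-fold.

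**Figure D5:**
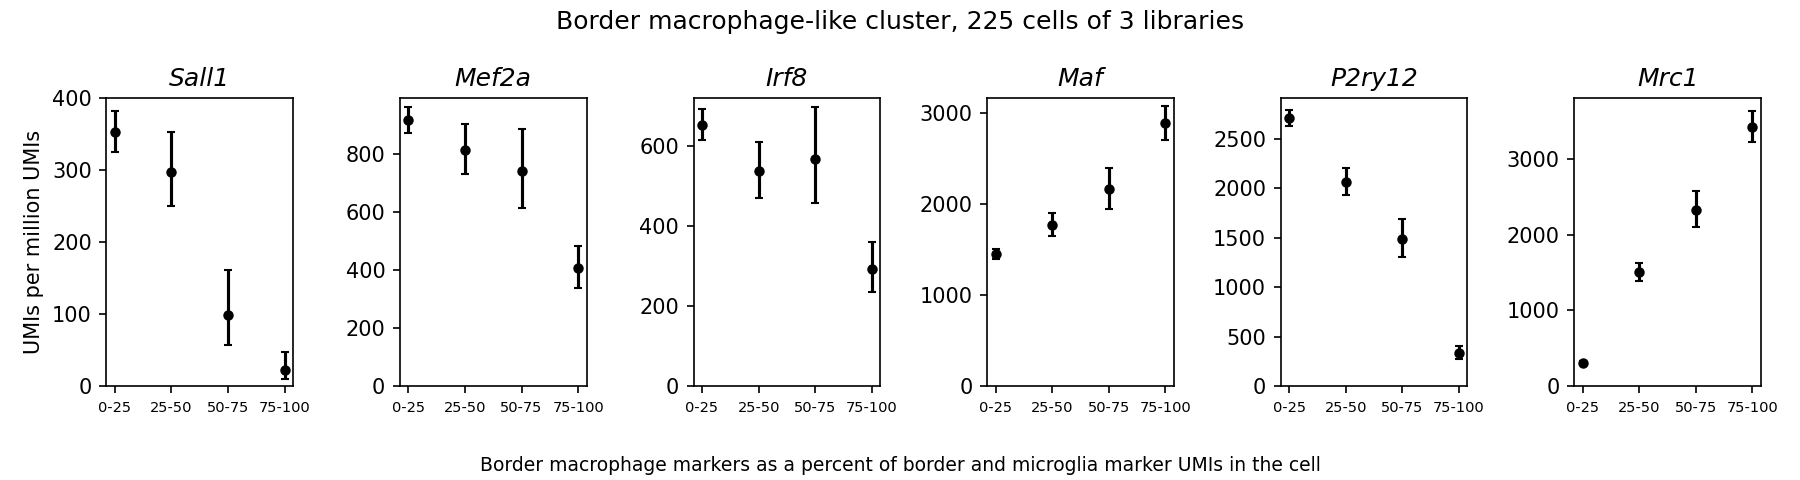
Level of Sall1, Mef2a, Irf8, Maf, P2ry12 and Mrc1 in CPM in the 225 cells of the border macrophage-like cluster, grouped by the percent of border macrophage markers among the cell's border macrophage and microglia marker UMIs, with 95% Poisson intervals over the 3 libraries pooled. Sall1 lay at 352 CPM at the lowest and 22.6 CPM at the highest step, and Maf at 1450 and 2884 CPM.

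Among the 9 microglia-like clusters, the levels pooled over the libraries spanned wider ranges than the 3 libraries did. Spi1 spanned 133 to 529 CPM, with the lowest level in a cluster of 1666 cells led by Malat1 and mitochondrial genes, whose median of 1880.5 UMIs per cell was well under the 4869 of the largest cluster. Sall1 was also lowest there, at 229 CPM, against 320 to 490 in the others, and it had 328 CPM (314 to 342) in the cluster led by the chemokine genes Ccl4 and Ccl3 and by Lpl. Irf8, whose gene responds to interferon, was highest in the cluster led by interferon genes such as Ifit3 and Isg15, at 764 CPM (727 to 803), against 433 to 705 in the other 8. Zeb2 spanned 510 to 1048, Mef2a 610 to 1283, Mef2c 1039 to 1612, Runx1 197 to 309 and Maf 1012 to 1507 CPM. The Malat1 cluster, low in Spi1 and Sall1, was the highest of the 9 for Zeb2, Mef2a and Mef2c. The unnamed cluster of the fewest UMIs reached 2507 CPM of Mef2a and 1496 of Zeb2.

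Over the 39 sums of a cluster in a library, which share libraries and differ in depth, the genes most like the factors were found by Pearson's r, as a description with no p. Sall1 went most closely with Rasgrp3 (r = 0.973), Bmp2k and Mylip, Mef2c with Smad7 (0.971) and with Tgfbr1, a receptor of TGF-beta, and Spi1 with the cytoskeletal genes Cfl1 (0.983), Actb and Cdc42. Runx1 went with Col27a1 (0.946), Maf with Nuak1 (0.942), Irf8 with Aim2 (0.926) and Zeb2 with Zcchc6 (0.879), while the closest gene to Hes1, Cript, reached 0.650. Over the 27 sums of microglia-like clusters alone these values were smaller, down to 0.692 for Maf with Nuak1 and 0.421 for Hes1 with Cript. Among the factors themselves, Mef2a with Mef2c had 0.896 over these 27 sums (0.866 over all 39), Zeb2 with Runx1 0.879 (0.626), Spi1 with Irf8 0.805 (-0.012) and Spi1 with Zeb2 -0.631 (-0.692). In single cells thinned to 1600 UMIs, the median microglia-like cell of each library held UMIs of 5 of the 9 factors, and 2 hCD33m, 1 hCD33M and 0 control cells held none.

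The genes are spread over 5 chromosomes by GENCODE M21 (GRCm38). Spi1 lies on chromosome 2 (91082390 to 91115756) with Zeb2, Sall1 (89027235 to 89044162), Irf8 (120736358 to 120756694) and Maf (115682942 to 115707794) lie on chromosome 8, Mef2a on 7 (67231163 to 67372858), Mef2c on 13 (83504034 to 83667080), and Runx1 (92601466 to 92826149) and Hes1 (30064384 to 30067796) on 16. The annotated gene Gm20388 spans Irf8 on the same strand, and antisense genes overlap Zeb2, Runx1 and Maf, so reads assigned to those names are not part of the levels given.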

How the data were processed

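Sorted brain cells of 3 mouse libraries, 1 per genotype, were profiled with 10x 3′ chemistry. The deposited values are raw UMI counts per gene and cell, which the authors made with Cell Ranger on mm10 and filtered in Seurat, keeping genes seen in 3 or more cells. They were not normalized. The annotation release is not given in the sources used here.

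Libraries held 32272657 to 40629705 UMIs. Kept cells of all libraries were clustered together with scanpy 1.11.5 and leidenalg 0.10.2 on 2000 variable genes (15 principal components, 20 neighbours, resolution 0.8), leaving out the 9 factors and immediate early, sex-linked and mitochondrial genes. Doublets were not called, but cells over 8000 genes were removed. UMIs were summed per library and class and divided by the class total (CPM). Intervals of 95% were exact: Poisson for levels, conditional binomial for ratios and Clopper-Pearson for shares of cells. Higher or lower means at least 1.5-fold, an interval clear of no difference and 20 CPM in 1 of the groups compared. Each cell was thinned to 1600 UMIs before shares were taken. With 1 library per genotype no p is given. All 9 factors are described. Other list genes were named among the up to 4 largest absolute ratios of hCD33m over control in a list of genes over 20 CPM, and likeness by the 3 highest r. Some genes that these rules name are not reported here. The microglia markers serve as comparison. The factors, lists and markers were chosen with earlier results of these data known. The rule was tried on simulated counts that held counting error only and changes of at least 2-fold. That run cannot speak to the spread between mice or to smaller differences. TMM factors came from edgeR 4.0.16.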

Additional observations from a re-analysis of the deposited data

Results flagged for a closer look

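Mef2a lay on opposite sides of control in different cell classes, with both counting intervals clear of no difference. In the border macrophage-like cluster its log2 ratio was 0.20 (0.05 to 0.35) for hCD33m over control and 0.21 (0.04 to 0.39) for hCD33M over control, where the microglia-like cells gave -0.10 and -0.06. In the monocyte-like cluster the ratio was 0.79 (0.40 to 1.18) for hCD33M over control, at 599 CPM in hCD33M against 347 in control cells. The difference between the classes was not tested, since each genotype is 1 library. P2ry12 moved the same way, at 2323 CPM in hCD33m and 2400 in hCD33M against 1952 in control border macrophage-like cells, and at 1468 in hCD33M against 404 CPM in control monocyte-like cells, and its part in the result was not tested.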

How the results depend on the processing

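Between libraries in microglia-like cells, no factor passed the 1.5-fold rule, counting interval included, under the other scalings, cell filters, clusterings or single clusters. A 2-fold rule on the same counts also gave 0, as it had to once no factor passed 1.5-fold. At the lower fold tried the count was 1 higher (Zeb2) for hCD33m over control and 1 for hCD33M over control. Zeb2 kept its direction in all 18 alternatives, at 0.36 to 0.53 for hCD33m and 0.25 to 0.45 for hCD33M over control, as did Maf for hCD33M over control (0.21 to 0.32). The median of the 9 for hCD33m over hCD33M was 0.15 in the Malat1-led cluster alone, against 0.00. The planned set of cells with no early gene UMI held 7 cells and was not run, and cells with at most 5 were used instead, chosen after seeing the data.

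Class counts moved most. Factors higher in microglia-like than border macrophage-like cells numbered 1, but 4 with gated cells and 3 in cells with a border marker share of at least 75% (chosen after seeing the data), each with 1 lower, 2 with each cell's CPM averaged, 0 with TMM and 0 in hCD33M alone. Factors lower than in monocyte-like cells numbered 1, but 2 with TMM and 0 in hCD33m alone and 0 in control alone. The hCD33m, hCD33M and control libraries have 1 pool each, so the spread between mice limits every value. No paired analysis was possible because the results come from no test.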
